A study of Homo sapiens with 16 samples.

Results

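The genes described here are 41 genes of the lysosome and of autophagy, taken by gene name as a list of known components and not by any measured value, although the list was drawn up with earlier results of these data known. All 41 were found among the 57820 genes of the table. They comprise 14 genes of the vacuolar proton pump (V-ATPase), 11 hydrolases and hydrolase activators, 5 membrane proteins, 2 transcription factors and 9 autophagy genes. All 41 exceeded 1 FPKM (fragments per kilobase of transcript and per unit of sequencing depth, a level per length) in at least 1 library, as did 18925 genes in all, and these 18925 were tested. CLN3 stands in the table under 2 identifiers. The second, ENSG00000261832, had a count of 0 in all 16 libraries, and ENSG00000188603 was used.

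Lysosomes are acidic organelles in which macromolecules are broken down. The V-ATPase, whose membrane sector V0 and cytosolic sector V1 assemble from many subunits, pumps protons into them, and the low pH activates the luminal hydrolases. In autophagy a double membrane encloses cytoplasm and then fuses with the lysosome. TFEB and TFE3 are related basic helix-loop-helix leucine zipper transcription factors that bind a palindromic sequence, the CLEAR element, in promoters of many lysosomal and autophagy genes. Their entry into the nucleus is restrained by the kinase complex mTORC1, which senses nutrients at the lysosomal surface.

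The cells were HEK-293, a human embryonic kidney line, in its Flp-In T-REx form, in which a transgene integrated at a single prepared site is transcribed when doxycycline is added. The transgene encoded Flag-Cherry-tagged HCF-2 (host-cell factor 2), a relative of the transcriptional co-regulator HCF-1, in a form called Fn3nc* in 1 cell line and in the wild-type (WT) form in the other. Fn3nc* carries an amino acid substitution in each of the fibronectin repeats Fn3n and Fn3c, which contact each other in the folded protein. Cells of each line were collected on days 1, 2, 4 and 6 after doxycycline, with 2 libraries for each of the 8 groups. All groups received doxycycline, at 1 μg/ml by the treatment protocol and 1 μl/ml by the design text, in medium with tetracycline-free serum. No uninduced cells and no cells without an HCF-2 transgene were analysed here, so change after induction cannot be told apart from change of the cultures with time. Each form was studied in a single line, so an effect of the HCF-2 form and any other difference between the lines cannot be told apart. The sources say only that induction was done in duplicate. The p-values therefore measure the spread between 2 libraries, which may be technical.

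Libraries held 20270033 to 31006448 expected counts, and the 41 genes took 0.243 to 0.323% of them, the largest shares being those of the 2 HCF-2 Fn3nc* day 1 libraries. Levels are given as CPM (counts relative to the scaled library total) for 1 gene across libraries and as FPKM between genes. HCFC2, the gene of HCF-2, measured 893 to 1479 CPM, transgene and endogenous transcripts together. Its course differed between the lines. In HCF-2 Fn3nc* it measured 893 and 908.5 CPM on day 1 and 1297 to 1479 CPM on the later days. In HCF-2 WT it measured 963 and 917 CPM on day 1, 946.5 and 980 on day 2, 1150 and 1065 on day 4 and 1362 and 1306 on day 6. The lines were thus compared at unequal HCFC2 levels, most so on day 2, and the part of this in the results was not tested. Of 6 markers of HEK-293 cells, VIM, KRT8, KRT18 and NEFL were present at 44 CPM or more in every library, whereas NEFM and PAX2 reached at most 1.95 CPM. The 6 markers summed to 719 to 953 CPM in HCF-2 Fn3nc* and 1138 to 1403 CPM in HCF-2 WT. Of 5 markers of macrophages and blood, cell types rich in lysosomes, PTPRC and TYROBP stayed under 0.5 CPM, and the 5 together summed to 1.98 to 5.64 CPM in HCF-2 Fn3nc* and 1.5 to 3.85 CPM in HCF-2 WT, highest in the HCF-2 Fn3nc* day 1 pair. Their part in the results was not tested. Since the samples are bulk RNA, fewer cells of a kind and less RNA per cell cannot be told apart.

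Promoter sequences were available for 30 of the 41 genes in RefSeq (GRCh38.p14, from 250 bases before to 50 bases after the start of transcription). They were searched for the E-box CACGTG and for TCACGTGA, the centre of the CLEAR element, which contains the E-box. Both read the same on either strand. CACGTG was present in 9 of the 30 promoters (30%), against 2548 of all 35116 (7.26%), and TCACGTGA in 6 of the 30 (20%), against 344 of all (0.98%). By role, CACGTG was in 3 of 9 V-ATPase, 3 of 7 hydrolase and 3 of 4 membrane protein promoters, and in 0 of 8 autophagy and 0 of 2 transcription factor promoters. A match is a description of the letters and not evidence of binding. Since the CLEAR element is known from promoters of lysosomal genes, these shares are no test. Among all tested genes with a promoter sequence, 975 held CACGTG and 9405 did not. The 9 matching promoters are shown because 7 of these genes recur below among those that fell in HCF-2 WT. Each window is 30 bases around 1 match, 5′ to 3′ on the strand of the gene, with the match in capitals.
ATP6V0D1, chr16:67481199-67481228, minus strand: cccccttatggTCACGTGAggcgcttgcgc
ATP6V0B, chr1:43974891-43974920, plus strand: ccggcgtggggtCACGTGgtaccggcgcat
ATP6V1G1, chr9:114587699-114587728, plus strand: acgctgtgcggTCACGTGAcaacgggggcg
NEU1, chr6:31862930-31862959, minus strand: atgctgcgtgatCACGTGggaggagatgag
CTSD, chr11:1763957-1763986, minus strand: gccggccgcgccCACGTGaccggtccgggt
CTSA, chr20:45891298-45891327, plus strand: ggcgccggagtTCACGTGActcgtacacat
LAMP1, chr13:113297199-113297228, plus strand: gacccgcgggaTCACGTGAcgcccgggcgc
MCOLN1, chr19:7522571-7522600, plus strand: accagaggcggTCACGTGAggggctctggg
CLN3, chr16:28492058-28492087, minus strand: cgcgggtgctgTCACGTGAtccgacaaacg
LAMP1 held 6 copies of CACGTG, ATP6V0B, CTSA, MCOLN1 and CLN3 held 2 copies each, and the other 4 genes held 1. In LAMP1 and MCOLN1, 2 of the copies were TCACGTGA.

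Per length, the most abundant of the 41 transcripts were CD63, a tetraspanin of late endosomes, at a median of 157 FPKM over the 16 libraries, GLA, the α-galactosidase, at 139.2 FPKM, PSAP, the precursor of sphingolipid activator proteins, at 137.3 FPKM, and ATP6V0B, a proteolipid subunit of V0, at 129.1 FPKM. The ranges of these 4 genes overlapped. The least abundant was TFEB, at a median of 2.09 FPKM (1.10 to 4.00), below TFE3 at 10.9 FPKM (8.18 to 26.7). WIPI1, which binds phosphoinositides on forming autophagosomes, followed TFEB at 4.43 FPKM and TPP1, a tripeptidyl peptidase, at 5.78 FPKM. The smallest count behind any value was 51, in TFEB.

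**Figure D1:**
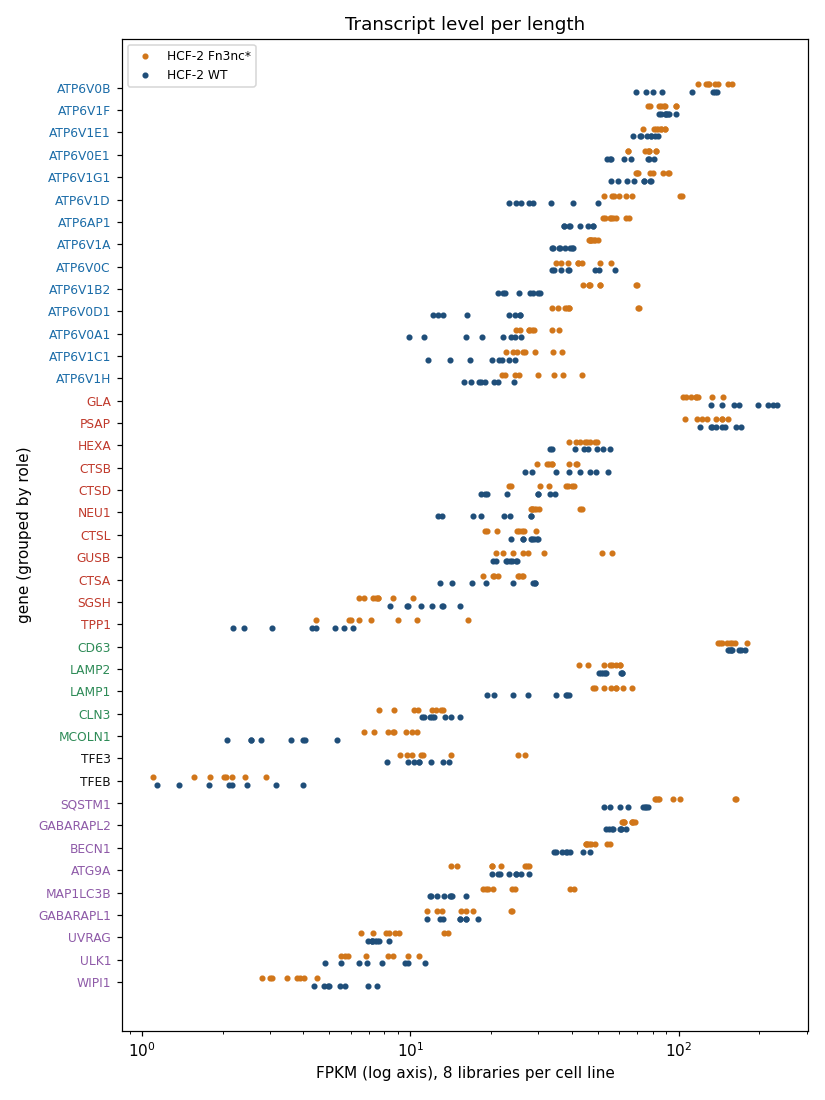
Level of each of the 41 genes in FPKM (log axis), 1 point per library, 8 libraries for HCF-2 Fn3nc* (orange, upper) and 8 for HCF-2 WT (blue, lower), with genes grouped by role and ordered by median. TFEB lies lowest, at a median of 2.09 FPKM, and CD63 highest, at 157 FPKM.

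The later days were compared with day 1 in each cell line to follow the genes after induction. The words rose and fell are used where edgeR's quasi-likelihood test gave an adjusted p under 0.05 over all genes tested and the log2 fold change (FC) lay beyond 0.5, that is 1.41-fold. In HCF-2 Fn3nc*, 12 of the 41 genes fell by day 2, where 10.7% of all genes tested fell, and 0 rose, where 4.18% of all genes did (6 were higher at an unadjusted p under 0.05, and DESeq2 called 0). By day 4, 14 fell and 4 rose (all genes 15.4% and 8.04%), with 2 rises without HCF-2 Fn3nc* day 1 replicate 2, and by day 6, 13 fell and 4 rose (all genes 15.4% and 8.89%). The falls by day 6 were those of TFE3, TFEB, the autophagy genes MAP1LC3B, UVRAG, SQSTM1 and GABARAPL1, the hydrolase genes GUSB, TPP1 and NEU1, and the V-ATPase genes ATP6V1D, ATP6V0D1, ATP6V1B2 and ATP6V1H, and the rises were those of ATG9A, CTSD, CLN3 and ULK1. These comparisons share the 2 day 1 libraries. From day 2 to day 6, edgeR called 0 rises and 0 falls among the 41, where 0.645% of all genes rose and 2.22% fell. At an unadjusted p under 0.05 there were 10 higher and 9 lower genes, and DESeq2 also called 0. Here and below, shares over all genes are not given for counts at an unadjusted p or by DESeq2.

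In HCF-2 WT, CTSB, a cysteine protease, was the single gene of the 41 called by day 2. It fell, where 0.275% of all genes fell, and 0 of the 41 rose, where 0.0264% of all genes did (1 was higher and 5 were lower at an unadjusted p under 0.05, and DESeq2 called 0 and 2). The CTSB call was lost when any of 6 of the 8 libraries was left out, at an adjusted p of 0.0879 to 0.475. By day 4, 7 of the 41 fell and 1 rose (all genes 1.87% and 5.13%), and by day 6, 11 fell and 2 rose (all genes 8.04% and 13.2%). The day 4 rise, that of TFEB, was lost without either HCF-2 WT day 1 library, and without day 4 replicate 2 there were 2 rises. By day 6 there were 4 rises without HCF-2 WT day 1 replicate 2. From day 2 to day 6, 11 fell and 4 rose (all genes 7.65% and 13.1%). The 11 that fell by day 6 were the V-ATPase genes ATP6V1D, ATP6V0D1, ATP6V0B, ATP6V0A1 and ATP6V1C1, the hydrolase genes NEU1, CTSA, CTSD and HEXA, and the membrane protein genes MCOLN1 and LAMP1, and the 2 that rose were TFEB and TFE3. Among the 9 autophagy genes edgeR called 0 by day 6, with 2 higher and 2 lower at an unadjusted p under 0.05, and DESeq2 called 1 rise, that of ULK1.

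By day 6 the 2 lines thus had 3 falls in common, ATP6V0D1, ATP6V1D and NEU1, and 3 genes called in opposite directions. TFEB and TFE3 fell in HCF-2 Fn3nc* and rose in HCF-2 WT, and CTSD rose in HCF-2 Fn3nc* and fell in HCF-2 WT. Another 11 genes were called in HCF-2 Fn3nc* alone, 7 in HCF-2 WT alone and 17 in neither. The difference between the 2 responses was tested as such. Counted from day 1, 13 of the 41 genes had a higher and 9 a lower response in HCF-2 Fn3nc* than in HCF-2 WT at an adjusted p under 0.05, where 16.1% and 20.0% of all genes did. Counted from day 2, 14 were higher and 5 lower (all genes 10.3% and 13.9%).

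**Figure D2:**
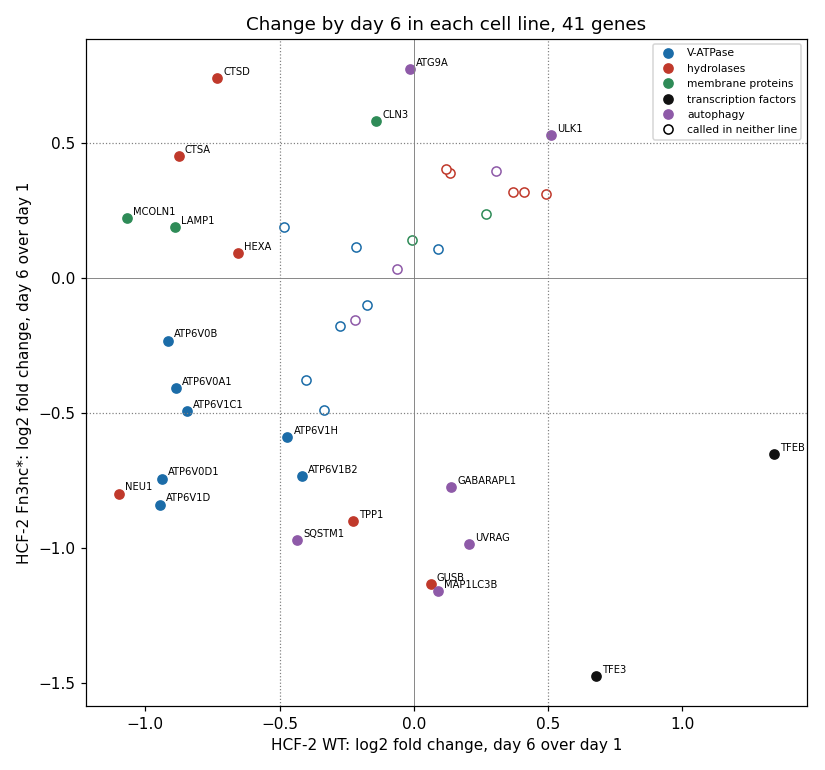
Log2 FC from day 1 to day 6 of each of the 41 genes in HCF-2 Fn3nc* (vertical) against HCF-2 WT (horizontal), 1 point per gene coloured by role, filled where called in at least 1 line. TFEB and TFE3 lie at the lower right, CTSD at the upper left, and ATP6V0D1, ATP6V1D and NEU1 at the lower left.

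Between the lines on the same day, 14 of the 41 genes were higher and 8 lower in HCF-2 Fn3nc* than in HCF-2 WT on day 1, where 18.7% and 15.5% of all genes were. On day 2 there were 4 higher and 4 lower (all genes 9.08% and 7.57%), on day 4 there were 9 higher and 4 lower (all genes 10.1% and 12.1%), and on day 6 there were 11 higher and 6 lower (all genes 13.2% and 16.8%). With scaling by library totals there were 8 higher and 1 lower on day 2, and 16 higher and 4 lower on day 6. For this scaling, shares over all genes are not given. The genes higher on day 1 included 4 of 9 autophagy genes and both transcription factors. On day 6 they were 6 V-ATPase, 3 hydrolase and 2 membrane protein genes, and both transcription factors and the autophagy gene WIPI1 were lower. Of the 8 groups, HCF-2 Fn3nc* day 1 had the highest mean CPM for 18 of the 41 genes and HCF-2 WT day 6 for 9. The lowest mean was that of HCF-2 WT day 6 for 18 genes and of HCF-2 Fn3nc* day 1 for 10. The highest and lowest groups were not counted over all genes, so these counts cannot be read as particular to the 41.

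**Figure D3:**
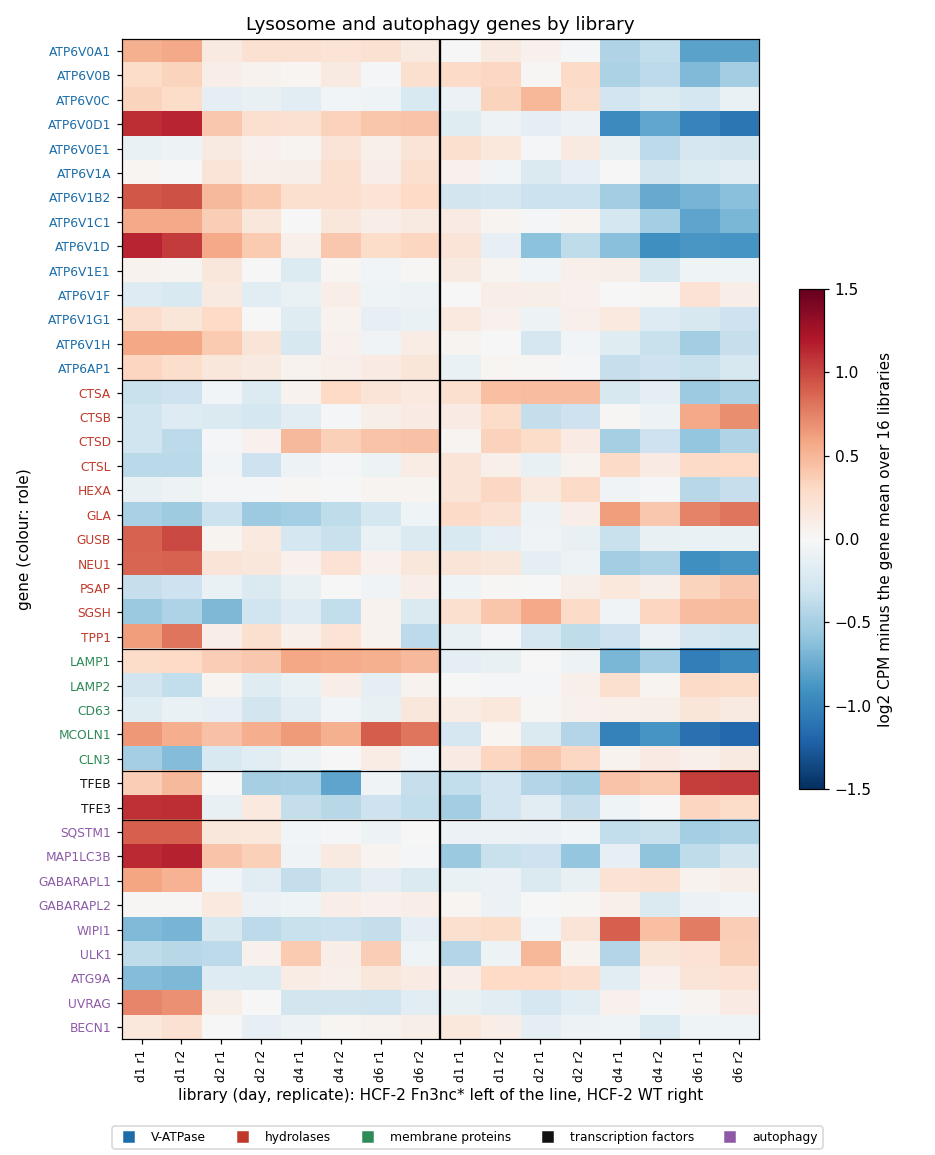
Log2 CPM of each of the 41 genes in each of the 16 libraries, minus the gene's mean over the libraries (red above, blue below), with HCF-2 Fn3nc* left and HCF-2 WT right of the line and day and replicate marked below. The HCF-2 Fn3nc* day 1 pair is red for TFE3, MAP1LC3B, SQSTM1 and ATP6V0D1, and the HCF-2 WT day 6 pair is blue for MCOLN1, LAMP1, NEU1 and ATP6V0D1.

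More V-ATPase genes fell than rose in both lines. In HCF-2 Fn3nc*, 4 of 14 fell by day 6 and 0 rose (all genes 15.4% and 8.89%), with a median log2 FC of -0.39 (all genes tested 0), and in HCF-2 WT 5 fell and 0 rose (all genes 8.04% and 13.2%), with a median of -0.44 (all genes -0.01). The genes that fell belong to both the membrane and the cytosolic sector. The 4 subunits called in the most comparisons follow in full.

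ATP6V0D1 (chr16:67471917-67515084 of GRCh37, minus strand) encodes subunit d of V0, which couples the rotor to the central stalk. In HCF-2 Fn3nc* it measured 86.2 and 88.4 CPM on day 1, 53 and 47.5 on day 2, 47.2 and 50.8 on day 4 and 53.3 and 53.7 on day 6. In HCF-2 WT it measured 35.4 and 38.1 CPM on day 1, 36.6 and 37.7 on day 2, 20.7 and 23.3 on day 4 and 20.1 and 18.9 on day 6. Every HCF-2 Fn3nc* library lay above every HCF-2 WT library. ATP6V0D1 fell by day 6 in HCF-2 Fn3nc* (log2 FC -0.74, SE 0.068, adjusted p = 1.43e-05) and in HCF-2 WT (log2 FC -0.94, SE 0.096, adjusted p = 4.02e-05). In HCF-2 Fn3nc* the fall had taken place by day 2 (log2 FC -0.82), whereas in HCF-2 WT the day 2 value was 0.02 and the fall was called on day 4. The lines differed on day 1 by 1.25 and on day 6 by 1.46 (SE 0.083, adjusted p = 7.30e-09).

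ATP6V1D (chr14:67761088-67826982 of GRCh37, minus strand) encodes subunit D of V1, a part of the central stalk. In HCF-2 Fn3nc* it measured 89 and 83.8 CPM on day 1, 59.6 and 52.9 on day 2, 42.6 and 53.4 on day 4 and 48.7 and 50.5 on day 6. The HCF-2 WT libraries held 46 and 37.1 CPM on day 1, 26.4 and 31 on day 2, 26.1 and 21.3 on day 4 and 22 and 21.8 on day 6. It fell by day 6 in HCF-2 Fn3nc* (log2 FC -0.84, SE 0.099, adjusted p = 7.38e-05) and in HCF-2 WT (log2 FC -0.94, SE 0.13, adjusted p = 2.98e-04), and it was higher in HCF-2 Fn3nc* on each of the 4 days, by 0.97 to 1.18 on the log2 scale. The day 6 responses of the lines differed by 0.12 (adjusted p = 0.645), which did not pass the test. Subunit D meets subunit d where the sectors join, and both genes were among the 3 that fell in both lines. Their courses in HCF-2 WT differed. From day 2 to day 6 edgeR called the fall of ATP6V0D1 and not that of ATP6V1D. DESeq2 called a fall of ATP6V1D in HCF-2 WT by day 2 (log2 FC -0.53, adjusted p = 0.049), and edgeR did not.

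ATP6V1B2 encodes the ubiquitous form of subunit B in the V1 head, beside the catalytic subunit A. It measured 189 and 191 CPM on day 1, 138 and 129.6 on day 2, 117 and 117 on day 4 and 114 and 121 on day 6 in HCF-2 Fn3nc*. Values in HCF-2 WT were 81.2 and 83.1 CPM on day 1, 79.2 and 78.9 on day 2, 68.8 and 58.5 on day 4 and 60.9 and 64.1 on day 6. The HCF-2 Fn3nc* libraries all lay above the HCF-2 WT libraries. It fell by day 6 in HCF-2 Fn3nc* (log2 FC -0.73, SE 0.06, adjusted p = 6.59e-06), and in HCF-2 WT the change did not pass the fold threshold (log2 FC -0.42, SE 0.091, adjusted p = 0.00419). ATP6V0B (chr1:44440159-44443967 of GRCh37, plus strand) showed the opposite. It measured 115 and 119.7 CPM on day 1, 102 and 98.7 on day 2, 96.7 and 104 on day 4 and 92.9 and 112 on day 6 in HCF-2 Fn3nc*, where the day 6 value was -0.23 and not called. HCF-2 WT cells had 116 and 118 CPM on day 1, 95.8 and 116 on day 2, 68.6 and 72.5 on day 4 and 59.9 and 65.8 on day 6, a fall by day 6 (log2 FC -0.92, SE 0.10, adjusted p = 5.90e-05). Its responses differed by 0.70, SE 0.14, adjusted p = 9.14e-04.

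Of the other 10 V-ATPase genes, ATP6V0A1, the large subunit a of V0, and ATP6V1C1, which joins the stator to V1, fell in HCF-2 WT by day 6 (log2 FC -0.89 and -0.84), where both day 6 libraries lay below all earlier libraries. In HCF-2 Fn3nc* their values were -0.41 and -0.49. ATP6V1H, a regulatory subunit, fell in HCF-2 Fn3nc* by 0.59, a call lost without day 6 replicate 1 (-0.48), and had -0.47 in HCF-2 WT. ATP6V0C, the main proteolipid, was called in 3 of the 14 comparisons, and ATP6V0E1, ATP6V1A and the accessory subunit ATP6AP1 in 1 each. ATP6V1E1, ATP6V1F and ATP6V1G1 were called in none of the 14, and the highest group mean of these 3 was 1.13 to 1.41 times the lowest. The promoter of ATP6V1G1 is among those with TCACGTGA shown above.

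In HCF-2 Fn3nc* 3 of the 11 hydrolase genes fell and 1 rose by day 6 (all genes 15.4% and 8.89%), with a median log2 FC of 0.32 (all genes 0), and in HCF-2 WT 0 rose and 4 fell (all genes 13.2% and 8.04%), with a median of 0.06 (all genes -0.01). NEU1, the sialidase, and CTSA, the protective protein that holds NEU1 and the β-galactosidase in a complex, fell in HCF-2 WT together with CTSD, an aspartic protease. In HCF-2 Fn3nc* these 3 genes took different courses.

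NEU1 (chr6:31825436-31830682 of GRCh37, minus strand) measured 95.1 and 95.5 CPM on day 1, 59.4 and 58.2 on day 2, 54.4 and 60.3 on day 4 and 54.3 and 58.2 on day 6 in HCF-2 Fn3nc*. The values of the HCF-2 WT line were 59.3 and 58.4 CPM on day 1, 47 and 49.2 on day 2, 36.1 and 37.7 on day 4 and 27.5 and 28.3 on day 6. The HCF-2 Fn3nc* day 1 pair stood above all other libraries and the HCF-2 WT day 6 pair below all others. NEU1 fell in HCF-2 Fn3nc* (log2 FC -0.80, SE 0.066, adjusted p = 7.48e-06) and in HCF-2 WT (log2 FC -1.10, SE 0.083, adjusted p = 7.97e-06), and it was higher in HCF-2 Fn3nc* on day 6 by 1.01, SE 0.071, adjusted p = 3.90e-08.

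CTSA (chr20:44518783-44527588 of GRCh37, plus strand) measured 25.6 and 25.9 CPM on day 1, 31.1 and 27.7 on day 2, 33.4 and 39.6 on day 4 and 36.6 and 35.5 on day 6 in HCF-2 Fn3nc*. In HCF-2 WT it measured 37.8 and 43.7 CPM on day 1, 44.4 and 44.2 on day 2, 27.3 and 28.9 on day 4 and 22.1 and 23 on day 6. The lines changed places, with all HCF-2 Fn3nc* libraries below all HCF-2 WT libraries on days 1 and 2 and above them on days 4 and 6. CTSA fell by day 6 in HCF-2 WT (log2 FC -0.88, SE 0.096, adjusted p = 6.00e-05), and its value of 0.45 in HCF-2 Fn3nc* did not pass the fold threshold. The responses differed by 1.34, SE 0.13, adjusted p = 2.50e-06.

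CTSD (chr11:1773982-1785803 of GRCh37, minus strand) crossed in the same manner. It measured 43.1 and 40.4 CPM on day 1, 52 and 55.7 on day 2, 74 and 67.9 on day 4 and 71.2 and 71.8 on day 6 in HCF-2 Fn3nc*. The HCF-2 WT libraries held 54.5 and 67.2 CPM on day 1, 64.3 and 57.5 on day 2, 37.6 and 42.9 on day 4 and 35.4 and 38.9 on day 6. The HCF-2 Fn3nc* and HCF-2 WT libraries did not overlap on any day, with HCF-2 Fn3nc* lower on days 1 and 2 and higher on days 4 and 6. CTSD rose in HCF-2 Fn3nc* (log2 FC 0.74, SE 0.072, adjusted p = 2.09e-05) and fell in HCF-2 WT (log2 FC -0.73, SE 0.11, adjusted p = 5.30e-04). The responses differed by 1.49, SE 0.14, adjusted p = 1.71e-06, the largest positive difference among the 41 genes. Its lower level in HCF-2 Fn3nc* on day 1 (-0.54) was not called with scaling by library totals (-0.47), with a replicate block (-0.47), or without HCF-2 WT day 1 replicate 2 (-0.41) or HCF-2 Fn3nc* day 1 replicate 2 (-0.50).

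GUSB (chr7:65425671-65447202 of GRCh37, minus strand), the β-glucuronidase, measured 89.9 and 97.1 CPM on day 1, 50.2 and 54 on day 2, 40.7 and 38.8 on day 4 and 45.6 and 41.9 on day 6 in HCF-2 Fn3nc*. Values in HCF-2 WT were 41.6 and 44.1 CPM on day 1, 47 and 45.1 on day 2, 38.7 and 45 on day 4 and 45.4 and 45.5 on day 6. The HCF-2 Fn3nc* day 1 pair stood far above all other libraries, and the day 2 pair of that line lay above the rest. GUSB fell by day 6 in HCF-2 Fn3nc* (log2 FC -1.13, SE 0.074, adjusted p = 1.65e-06). GUSB has pseudogenes that resemble it, the most abundant of which, GUSBP11, was listed at 12.2 to 48.2 CPM, so how reads were divided among them makes its values uncertain. Of the other hydrolases, TPP1 fell in HCF-2 Fn3nc* (log2 FC -0.90) and HEXA, the α subunit of β-hexosaminidase, fell in HCF-2 WT (log2 FC -0.65). GLA was lower in HCF-2 Fn3nc* than in HCF-2 WT on days 1, 4 and 6 (log2 differences -0.77, -0.95 and -0.93), and CTSB was lower on day 6 (-0.53, -0.40 and not called with library totals). SGSH, a sulfamidase, was lower on days 1, 2 and 6 (-0.84, -0.91 and -0.54), and the day 6 call was lost with library totals or without HCF-2 Fn3nc* day 6 replicate 2. CTSL, a cysteine protease, was lower on day 1 (-0.55, -0.48 and not called with library totals). PSAP was called in none of the 14 comparisons.

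Among the 5 membrane proteins, MCOLN1 and LAMP1 fell in HCF-2 WT and CLN3 rose in HCF-2 Fn3nc* by day 6. LAMP2 and CD63 were called in none of the 14 comparisons. The median log2 FC of the 5 was 0.22 in HCF-2 Fn3nc* and -0.14 in HCF-2 WT (all genes 0 and -0.01).

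MCOLN1 (chr19:7587510-7598895 of GRCh37, plus strand) encodes a calcium-conducting channel of the lysosomal membrane. It measured 11.8 and 11 CPM on day 1, 10.2 and 11 on day 2, 11.7 and 10.9 on day 4 and 14.1 and 13.1 on day 6 in HCF-2 Fn3nc*. HCF-2 WT cells had 6.33 and 7.71 CPM on day 1, 6.47 and 5.56 on day 2, 3.72 and 4.09 on day 4 and 3.46 and 3.33 on day 6. All HCF-2 Fn3nc* libraries exceeded all HCF-2 WT libraries. MCOLN1 fell by day 6 in HCF-2 WT (log2 FC -1.07, SE 0.17, adjusted p = 6.10e-04), with a value of 0.22 in HCF-2 Fn3nc* that was not called. On day 6 it was 4.02-fold higher in HCF-2 Fn3nc* (2.01, SE 0.13, adjusted p = 2.63e-08), the largest difference between the lines on that day among the 41 genes.

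LAMP1 (chr13:113951554-113977987 of GRCh37, plus strand), a heavily glycosylated protein that lines the lysosomal membrane, measured 115 and 117 CPM on day 1, 123 and 126 on day 2, 142 and 139.8 on day 4 and 138 and 134 on day 6 in HCF-2 Fn3nc*. The values of the HCF-2 WT line were 86.2 and 88.3 CPM on day 1, 94.9 and 90.4 on day 2, 59.1 and 66.7 on day 4 and 46.5 and 49.2 on day 6. The HCF-2 Fn3nc* libraries again all exceeded the HCF-2 WT libraries, and the gap widened from day 4. LAMP1 fell in HCF-2 WT (log2 FC -0.89, SE 0.084, adjusted p = 2.36e-05), where the decline by day 4 (-0.47) lay just short of the fold threshold, and its value in HCF-2 Fn3nc* was 0.19. The responses differed by 1.09, SE 0.095, adjusted p = 6.89e-07. The related gene LAMP2 had a day 6 value of 0.24 in HCF-2 Fn3nc* and 0.27 in HCF-2 WT.

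CLN3 (chr16:28485432-28506896 of GRCh37, minus strand), whose loss causes a juvenile lysosomal storage disease, measured 11.7 and 10.6 CPM on day 1, 14.3 and 14.8 on day 2, 15.8 and 16.5 on day 4 and 17.9 and 16.2 on day 6 in HCF-2 Fn3nc*. In HCF-2 WT it measured 18.2 and 20.8 CPM on day 1, 22.3 and 20.7 on day 2, 17.3 and 18.1 on day 4 and 17.6 and 18.3 on day 6. The HCF-2 Fn3nc* day 1 pair was lowest, and CLN3 rose from there by day 6 (log2 FC 0.58, SE 0.096, adjusted p = 7.05e-04), against -0.14 in HCF-2 WT. The responses differed by 0.73, SE 0.14, adjusted p = 5.85e-04.

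Counted from day 1, the 2 transcription factors moved in opposite directions in the 2 lines. Counted from day 2, neither was called in HCF-2 Fn3nc*. TFE3 (chrX:48886237-48900936 of GRCh37, minus strand) measured 77.3 and 78.2 CPM on day 1, 33.6 and 40.2 on day 2, 28.2 and 27.2 on day 4 and 29.3 and 28.2 on day 6 in HCF-2 Fn3nc*. The HCF-2 WT libraries held 25.2 and 29.6 CPM on day 1, 32.4 and 28.6 on day 2, 34.5 and 36.4 on day 4 and 45.3 and 43.9 on day 6. The HCF-2 Fn3nc* day 1 pair stood far above all other libraries, and by day 4 the HCF-2 Fn3nc* libraries lay below those of HCF-2 WT. TFE3 fell in HCF-2 Fn3nc* (log2 FC -1.47, SE 0.086, adjusted p = 8.42e-07) and rose in HCF-2 WT (log2 FC 0.68, SE 0.10, adjusted p = 4.01e-04). The responses differed by -2.13, SE 0.14, adjusted p = 3.70e-08, the largest difference in size among the 41 genes. From day 2 the change was -0.37 in HCF-2 Fn3nc* (adjusted p = 0.0341, short of the fold threshold) and 0.52 in HCF-2 WT, a call lost without HCF-2 WT day 2 replicate 2 or day 6 replicate 1 and without the FPKM filter.

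TFEB (chr6:41651716-41703997 of GRCh37, minus strand) was scarce, with 4.34 and 4.71 CPM on day 1, 3.36 and 2.39 on day 2, 2.41 and 1.95 on day 4 and 3.24 and 2.65 on day 6 in HCF-2 Fn3nc*. Values in HCF-2 WT were 2.59 and 2.77 CPM on day 1, 2.49 and 2.38 on day 2, 4.54 and 4.4 on day 4 and 6.88 and 6.94 on day 6. Its highest libraries were the HCF-2 WT day 6 pair, which lay above all others. TFEB rose in HCF-2 WT (log2 FC 1.34, SE 0.16, adjusted p = 1.17e-04), and the rise also held from day 2 (1.48). It fell in HCF-2 Fn3nc* (log2 FC -0.65, SE 0.21, adjusted p = 0.0276), but this fall was not called by DESeq2 (adjusted p = 0.109), without the FPKM filter (adjusted p = 0.0666) or without any 1 of the 4 libraries of days 1 and 6 (adjusted p = 0.0511 to 0.16). From day 2 to day 6 the TFEB value in HCF-2 Fn3nc* was 0.02 and not called. The responses from day 1 differed by -1.98, SE 0.26, adjusted p = 2.80e-05. On day 6 both factors were lower in HCF-2 Fn3nc* than in HCF-2 WT, TFEB with a log2 difference of -1.23, SE 0.18, adjusted p = 4.57e-05, and TFE3 with -0.63, SE 0.096, adjusted p = 6.49e-05. These are transcript levels, and neither the proteins nor their place in the cell was measured in these libraries.

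**Figure D4:**
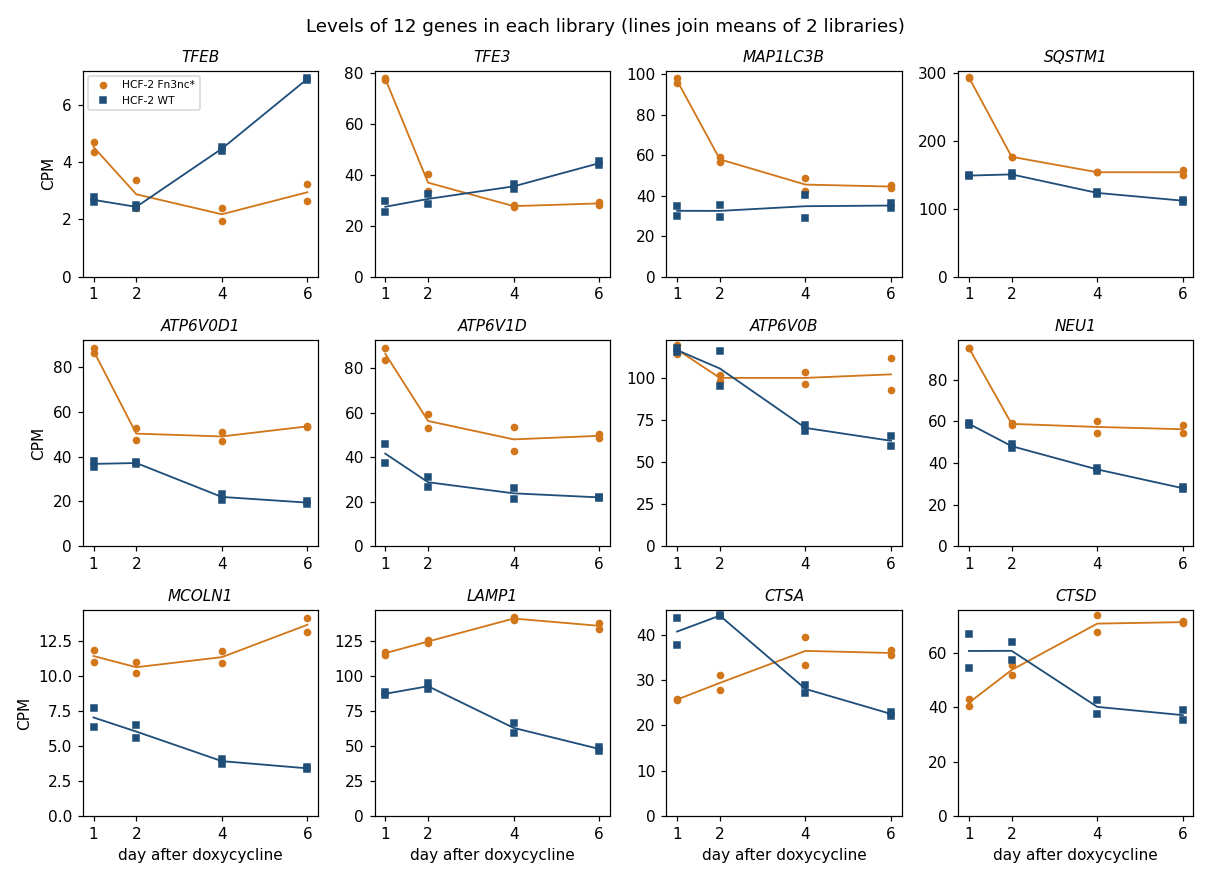
CPM of 12 of the genes against the day after doxycycline, 1 point per library (orange circles HCF-2 Fn3nc*, blue squares HCF-2 WT), with lines through the means of 2 libraries and each vertical axis starting at 0. TFEB and TFE3 climb in HCF-2 WT while MCOLN1, LAMP1, CTSA, CTSD, NEU1 and the V-ATPase genes decline there.

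Of the 9 autophagy genes, edgeR called 6 in HCF-2 Fn3nc* by day 6 and 0 in HCF-2 WT, where 2 were higher and 2 lower at an unadjusted p under 0.05 and DESeq2 called 1, ULK1. In HCF-2 Fn3nc*, 4 fell and 2 rose by day 6, where 15.4% and 8.89% of all genes did (median log2 FC -0.16, all genes 0). In HCF-2 WT 8.04% of all genes fell and 13.2% rose, and the median of the 9 was 0.09 (all genes -0.01). The 4 that fell encode LC3B and GABARAPL1, ubiquitin-like proteins that are attached to the lipid of the autophagosome membrane, SQSTM1 (p62), which tethers ubiquitinated cargo to them, and UVRAG, a subunit of a lipid kinase complex. All 4 were highest in the HCF-2 Fn3nc* day 1 pair.

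MAP1LC3B (chr16:87417559-87438385 of GRCh37, plus strand), the gene of LC3B, measured 95.5 and 98.3 CPM on day 1, 59.3 and 56.6 on day 2, 42.4 and 48.6 on day 4 and 45.3 and 43.7 on day 6 in HCF-2 Fn3nc*. HCF-2 WT cells had 29.99 and 35.1 CPM on day 1, 35.5 and 29.4 on day 2, 40.5 and 29.1 on day 4 and 33.8 and 36.5 on day 6. It fell in HCF-2 Fn3nc* (log2 FC -1.16, SE 0.072, adjusted p = 1.17e-06), and no change was called in HCF-2 WT (log2 FC 0.09, adjusted p = 0.692). The near-identical copy MAP1LC3B2 was listed at 0.194 to 0.721 CPM, so few reads stood there, though the division of reads between the copies is uncertain.

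SQSTM1 (chr5:179233398-179265078 of GRCh37, plus strand) measured 294 and 293 CPM on day 1, 176 and 176 on day 2, 153 and 154 on day 4 and 149.5 and 157 on day 6 in HCF-2 Fn3nc*. The values of the HCF-2 WT line were 148 and 149 CPM on day 1, 148 and 153 on day 2, 121 and 125 on day 4 and 110.1 and 113 on day 6. The replicates lay close together, and SQSTM1 fell in HCF-2 Fn3nc* (log2 FC -0.97, SE 0.057, adjusted p = 8.51e-07). In HCF-2 WT the value of -0.43 did not pass the fold threshold (adjusted p = 0.00108).

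UVRAG (chr11:75526255-75855276 of GRCh37, plus strand) measured 40.8 and 39.6 CPM on day 1, 26.1 and 24.5 on day 2, 20.3 and 20.4 on day 4 and 19.9 and 21.7 on day 6 in HCF-2 Fn3nc*. In HCF-2 WT it measured 22.6 and 21.8 CPM on day 1, 20.6 and 21.8 on day 2, 25.6 and 24.3 on day 4 and 25.3 and 26.7 on day 6. It fell in HCF-2 Fn3nc* (log2 FC -0.98, SE 0.074, adjusted p = 3.80e-06), and the responses differed by -1.18 from day 1 and -0.58 from day 2. GABARAPL1 (chr12:10365057-10375727 of GRCh37, plus strand) measured 36 and 34.3 CPM on day 1, 23.2 and 21.3 on day 2, 18.7 and 20.5 on day 4 and 21.6 and 20.6 on day 6 in HCF-2 Fn3nc*. The HCF-2 WT libraries held 22.4 and 22.6 CPM on day 1, 20.6 and 22.1 on day 2, 27.9 and 28 on day 4 and 24.8 and 25.5 on day 6. GABARAPL1 fell in HCF-2 Fn3nc* (log2 FC -0.77, SE 0.08, adjusted p = 3.20e-05). For both genes the HCF-2 Fn3nc* libraries were above the HCF-2 WT libraries on day 1 and below them on days 4 and 6.

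ATG9A, a scramblase that brings membrane to the forming autophagosome, and ULK1, the kinase that starts autophagy, rose in HCF-2 Fn3nc* (log2 FC 0.77 and 0.53). The ATG9A responses differed by 0.80, SE 0.11, adjusted p = 6.33e-05. The ULK1 call was lost without either day 1 library or without day 6 replicate 1 (adjusted p = 0.0841 to 0.226), and its value in HCF-2 WT was 0.51 (adjusted p = 0.0576), where DESeq2 called a rise. WIPI1 was lower in HCF-2 Fn3nc* than in HCF-2 WT on days 1, 4 and 6 (-0.93, -1.01 and -0.83). BECN1, a core subunit of the lipid kinase complex of UVRAG, and GABARAPL2 were called in none of the 14 comparisons.

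**Figure D5:**
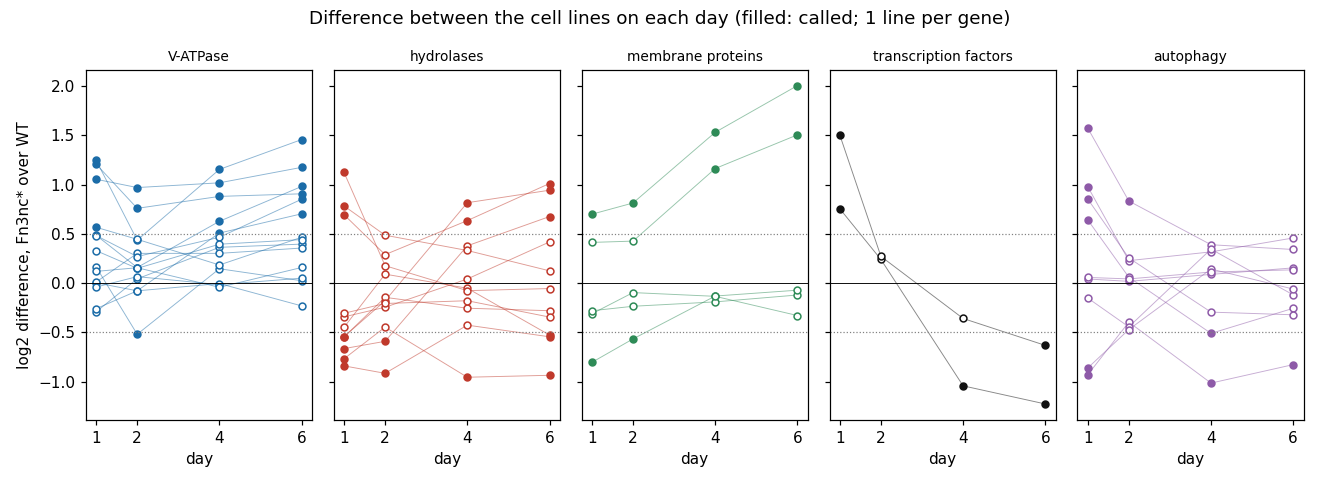
Log2 difference of HCF-2 Fn3nc* over HCF-2 WT on each day for each of the 41 genes, 1 line per gene, in a panel per role, with filled points where called and dotted lines at the fold threshold of 0.5 either way. MCOLN1 and LAMP1 climb to 2.01 and 1.51 on day 6, and both transcription factors pass from above 0 on day 1 to below 0 on day 6.

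The promoter match was set beside the calls. Of the 9 genes shown above with CACGTG, 7 fell in HCF-2 WT by day 6 (ATP6V0B, ATP6V0D1, CTSA, CTSD, LAMP1, MCOLN1 and NEU1), against 2 of 21 genes without it (ATP6V0A1 and ATP6V1D). Over all genes tested with a promoter sequence, 115 of 975 with the match fell (11.8%), against 746 of 9405 without it (7.93%). In HCF-2 WT 0 of the 9 and 2 of the 21 (TFE3 and TFEB) rose, where 12.1% and 15.7% of all genes did. The same 7 genes were higher in HCF-2 Fn3nc* than in HCF-2 WT on day 6, against 2 of 21 without the match, where the shares over all genes were 13.3% with it and 12.6% without it. Both comparisons use the HCF-2 WT day 6 libraries. The match also goes with role. The 21 genes without it include 8 autophagy genes and 2 transcription factors, and the 9 with it include 0 of either role. Of these 2 roles, 0 genes fell in HCF-2 WT and 0 were higher in HCF-2 Fn3nc* on day 6. The part of role in these contrasts was not tested. In HCF-2 Fn3nc* from day 1 to day 6, 2 of the 9 fell and 2 rose, and of the 21 without the match 8 fell and 2 rose. Over all genes 17.5% fell and 10.3% rose with the match, and 16.9% fell and 11% rose without it. These are counts with no test, since the 41 genes were chosen with results known, and the promoters of 11 of the 41 genes were not used here.

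Beyond the 41 genes, 143 others of the lysosome and of autophagy were followed, with 139 entries tested. In HCF-2 Fn3nc*, 25 of the 139 rose and 15 fell by day 6 (all genes 8.89% and 15.4%). The largest rises were those of SESN3, a stress-induced regulator of mTORC1 (218 CPM on day 6 against 101 on day 1, log2 FC 1.08), and ARSA, the arylsulfatase A (10.4 against 5.04 CPM, 1.01). The largest falls were those of VPS11, a tethering factor for lysosome fusion (16.3 against 71.3 CPM, -2.16), and FLCN, which acts in nutrient signalling to TFE3 (35.8 against 112 CPM, -1.69). Of 39 other hydrolases and their cofactors, 15 rose and 1 fell in this line, whereas 1 of the 11 hydrolases of the 41 rose and 3 fell. In HCF-2 WT, 14 of the 139 rose and 15 fell (all genes 13.2% and 8.04%).

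In HCF-2 WT the largest rises of these other genes were from low levels, in PARK2, a ubiquitin ligase of mitophagy (3.36 CPM on day 6 against 0.134 on day 1, log2 FC 4.58), and CTSS, a cysteine protease (1.27 against 0.246 CPM, 2.32). Among the falls was that of CTNS, the cystine exporter (5.41 against 11.9 CPM, -1.16). On day 6, CTNS was the gene most above HCF-2 WT in HCF-2 Fn3nc* (1.72), and in all 26 of the 139 were higher and 16 lower (all genes 13.2% and 16.8%). Of the responses from day 1 to day 6, 37 of the 139 were higher and 22 lower in HCF-2 Fn3nc* than in HCF-2 WT (all genes 16.1% and 20.0%).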

How the data were processed

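The deposited table gives, for 16 libraries, expected counts and FPKM per gene, which the authors obtained by aligning 125-nt single-end reads of poly(A) RNA (NEXTflex qRNA-seq kit) to GRCh37 with STAR and counting with RSEM 1.3.0. In expected counts, a read that fits several genes is shared out between them. The deposited FPKM values are scaled for transcript length and library depth. For counting, use of the kit's molecular labels and of strand was not given in the sources used here. Reads of overlapping antisense genes may be included. All columns were used.

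Expected counts were rounded. Genes above 1 FPKM in at least 1 library were tested by edgeR 4.0.16 (R 4.3.3, TMM scaling, quasi-likelihood test, Benjamini-Hochberg adjustment over 18925 genes). Each line was fitted over its 8 libraries, and differences between lines over 16 libraries in 8 groups. SE was the log2 FC divided by the root of the F statistic. Calls needed an adjusted p under 0.05 and a log2 FC beyond 0.5, and differences of responses the adjusted p alone. Within-line comparisons share day 1 or day 2 libraries. The 41 genes, the other 143 and the naming rule were chosen with earlier results of these data known. By that rule, library values are given for up to 4 genes per role called in the most of 14 comparisons and for both transcription factors, and of the other genes up to 2 rises and 2 falls per comparison are named, except that 1 gene is not reported here. Duplicates differed by more than sampling noise in every group (chi-square per gene 2.40 to 15.4). Alternatives were DESeq2 1.42.0, other scaling, filters and fold threshold, 1 fit of 16 libraries, a replicate block and leaving out each library. The tests were tried on simulated counts. The test of differences of responses recovered 40% of simulated log2 differences of 0.75 and 98% of those of 1.5. Of the other comparisons tried, 2 recovered 89 and 90% at 0.75, and recovery was 100% at 1.5 and at 3. The simulated counts had 1 spread for all genes, and changes were placed only in genes above a minimum level. Scarce genes such as TFEB were not tried, and how far this recovery holds for these data was not tested. Gene positions are from a GENCODE release lifted to GRCh37 and may differ from the release used by the authors. Figures were drawn with matplotlib 3.10.9 (Python 3.11.15).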

Additional observations from a re-analysis of the deposited data

Results flagged for a closer look

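The change from day 1 to day 6 differed between the cell lines for 22 of the 41 genes by edgeR's test of the difference itself (HCF-2 Fn3nc* minus HCF-2 WT, adjusted p under 0.05 over all genes), where 16.1% of all genes tested had a higher and 20.0% a lower response in HCF-2 Fn3nc*. The 9 lower responses were, on the log2 scale, TFE3 with -2.13, TFEB with -1.98, MAP1LC3B with -1.23, GUSB with -1.18, UVRAG with -1.18, GABARAPL1 with -0.90, TPP1 with -0.66, SQSTM1 with -0.52 and ATP6V1B2 with -0.30. The 13 higher responses were CTSD with 1.49, CTSA with 1.34, MCOLN1 with 1.31, LAMP1 with 1.09, ATG9A with 0.80, HEXA with 0.76, CLN3 with 0.73, ATP6V0B with 0.70, ATP6V0E1 with 0.69, ATP6V0A1 with 0.49, ATP6V1C1 with 0.37, ATP6V1A with 0.34 and NEU1 with 0.32.

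The HCF-2 Fn3nc* day 1 pair is the base of 1 side of each of these differences and held the largest share of counts for the 41 genes. Counted from day 2 instead, the differences were -0.90 for TFE3, -1.47 for TFEB, -0.58 for UVRAG, 1.27 for CTSA, 1.19 for MCOLN1, 1.12 for CTSD and 1.08 for LAMP1, all called. Counted from day 2, edgeR did not call GUSB (-0.23), MAP1LC3B (-0.49) or SQSTM1 (0.23), whose sign changed. GABARAPL1, TPP1, ATP6V1B2, ATP6V0E1 and ATP6V1A were not called from day 2 either. Of these, GABARAPL1 and ATP6V0E1 were called under some alternatives, such as FPKM above 1 required in every library. DESeq2 called MAP1LC3B (-0.50, adjusted p = 0.0441) and SQSTM1 (0.22, adjusted p = 0.0265), and edgeR called both with FPKM above 1 required in every library, SQSTM1 with library totals, and MAP1LC3B without the FPKM filter or without 1 of 3 HCF-2 WT libraries (day 2 replicate 1, day 4 replicate 1 or day 4 replicate 2). The differences of ATP6V1B2, NEU1, ATP6V1A, ATP6V1C1 and TPP1 lost their call without single libraries.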

How the results depend on the processing

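No called result was reversed under the alternatives run. Without the fold threshold, genes were called in greater number: HCF-2 Fn3nc* had 3 rises and 19 falls at day 2, 9 rises at day 4, 11 rises at day 6, and 3 rises and 3 falls between days 2 and 6. HCF-2 WT had 3 rises and 15 falls at day 4, 6 rises and 17 falls at day 6, and 7 rises and 18 falls between days 2 and 6. In HCF-2 Fn3nc* against HCF-2 WT, 15 genes were lower on day 1, 14 higher and 9 lower on day 2, 16 higher and 7 lower on day 4, and 18 higher and 11 lower on day 6. Scaling by library totals moved the median of all genes by 0.13 on day 6 in that comparison, and gave 8 higher and 1 lower genes on day 2, and 16 higher and 4 lower on day 6. In HCF-2 WT by day 2, 2 genes fell by DESeq2, 1 rose and 2 fell without the FPKM filter, and 0 fell with the replicate block. By day 4, 0 rose by DESeq2. Shares over all genes tested are not given for the alternatives or for counts at an unadjusted p. Those counts therefore cannot be read as particular to the lysosome and autophagy genes.

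Leaving out each library gave, in HCF-2 Fn3nc*, 0 rises and 10 to 12 falls at day 2, 2 to 4 rises (2 without day 1 replicate 2) and 13 to 14 falls at day 4, 3 to 5 rises and 12 to 13 falls at day 6, and 0 to 1 of each between days 2 and 6. HCF-2 WT gave 0 rises and 0 to 1 falls at day 2, 0 to 2 rises and 5 to 9 falls at day 4, 2 to 4 rises (4 without day 1 replicate 2) and 11 to 12 falls at day 6, and 3 to 4 rises and 10 to 11 falls between days 2 and 6. HCF-2 Fn3nc* against HCF-2 WT gave 14 to 15 higher and 7 to 9 lower genes on day 1, 4 to 6 higher and 4 to 5 lower on day 2, 8 to 11 higher and 4 to 5 lower on day 4, and 11 to 12 higher and 5 to 6 lower on day 6. Differences of responses gave 10 to 13 and 7 to 9 from day 1, and 10 to 15 and 4 to 7 from day 2. By day 4 in HCF-2 WT, TFEB lost its call without either day 1 library, and WIPI1 gained one without day 4 replicate 2. From day 2 in HCF-2 Fn3nc*, TFE3 gained one without day 2 replicate 1. The cause was not tested.

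Deviations of same-numbered libraries from their group means correlated at -0.16 to 0.13 over genes. These values give no sign that replicate numbers pair the libraries, but cannot exclude it. With the replicate block, the differences of responses from day 1 numbered 19 in place of 22 (ATP6V1A, ATP6V1B2 and ATP6V1C1 lost), CTSB lost its call in HCF-2 WT by day 2, and between the lines CTSD lost its call on day 1, ATP6V0C on day 2 and GABARAPL1 on day 4, while ATP6V0A1 gained one on day 1.

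With 2 libraries a group, calls near the fold threshold can turn on small changes of the fit. The call of ATP6V0B on day 4 between the lines was lost in 8 of the fits that leave out a library (0.46 to 0.50). In most of these the library left out was not a day 4 library.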

Other observations

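Of the 139 other entries of the lysosome and autophagy, 106 had a RefSeq promoter sequence, 23 with CACGTG and 83 without it. In HCF-2 WT by day 6, 6 of the 23 fell and 0 rose (ATG3, IGF2R, LAMTOR1, NAGPA, RRAGB and SUMF1), and of the 83 without the match 5 fell and 9 rose (edgeR). Over all genes tested, 11.8% fell and 12.1% rose with the match, and 7.93% fell and 15.7% rose without it. On day 6, 7 of the 23 were higher and 1 lower in HCF-2 Fn3nc* than in HCF-2 WT, and of the 83, 12 were higher and 9 lower. Over all genes 13.3% were higher and 14.4% lower with the match, and 12.6% and 20.7% without it. In HCF-2 Fn3nc* by day 6, 4 of the 23 rose and 5 fell, and of the 83, 14 rose and 8 fell. Over all genes 10.3% rose and 17.5% fell with the match, and 11% rose and 16.9% fell without it. These counts have no test, and the first pair of comparisons share the HCF-2 WT day 6 libraries.

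Of 24 genes of nutrient sensing at the lysosome, MTOR, the kinase of mTORC1, fell in HCF-2 WT by day 6 (log2 FC -0.52), as did LAMTOR1, its anchor on the lysosome (-0.54), and RRAGB, while DDIT4, a stress-induced inhibitor of mTORC1, and MLST8 rose. In HCF-2 Fn3nc* FLCN, its partner FNIP1, RRAGC and LAMTOR3 fell and SESN3, DDIT4 and MLST8 rose. MTOR had already fallen in HCF-2 WT by days 2 and 4, where 0.275% and 1.87% of all genes fell. It also fell in HCF-2 Fn3nc* by days 2 and 4 (all genes 10.7% and 15.4%), though not by day 6. From day 2 to day 6 MTOR was called in neither line, and its difference of responses was not called. By day 6, 8.04% of all genes fell and 13.2% rose in HCF-2 WT, and 15.4% fell and 8.89% rose in HCF-2 Fn3nc*. These genes were named after their values were seen.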
